A study of Mus musculus with 67 samples.

Results

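The nuclear-encoded genes of the respiratory chain were examined by RNA-seq in mouse forelimb buds with and without Gli3, the gene of the transcriptional repressor and activator of Hedgehog signaling. The genes were chosen by symbol alone: rows named Nduf with a letter of a, b, c, s or v and a number, Uqcr, Cox4 to Cox8, Atp5 or Sdha to Sdhd, with names ending in -ps left out. This gave 83 of the 46983 gene IDs in the tables, namely 36 genes of complex I, 4 of complex II, 8 of complex III, 18 of complex IV and 17 of complex V. WT embryos of the Swiss Webster strain and Gli3-/- embryos, which carry the Gli3 Xt-J allele kept on that strain, were compared at E9.25 (21 to 23 somites, before Hedgehog signaling begins in the bud) and at E10.5 (32 to 35 somites). There were 3 WT and 4 Gli3-/- libraries at E9.25, each from about 4 pooled pairs of whole forelimb buds, and 4 WT and 3 Gli3-/- libraries at E10.5, each from 2 pairs of anterior forelimb buds. Stage and part of the bud therefore changed together and cannot be told apart. The p-values measure the spread between these pools, and in bulk tissue fewer cells of a type cannot be told apart from less RNA per cell.

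The respiratory chain lies in the inner mitochondrial membrane. Complex I (NADH dehydrogenase) and complex II (succinate dehydrogenase) pass electrons to ubiquinone, complex III passes them on to cytochrome c, and complex IV (cytochrome c oxidase) reduces oxygen to water. Complexes I, III and IV pump protons, and complex V (ATP synthase) uses the gradient to make ATP. Most subunits are encoded in the nucleus and a smaller set, all of it core subunits, in mitochondrial DNA. Several complex IV subunits exist as paired isoforms, of which one is used in most tissues and the other mainly in lung and under low oxygen (Cox4i2), testis (Cox6b2, Cox7b2, Cox8c) or heart and skeletal muscle (Cox6a2, Cox7a1, Cox8b). Some symbols no longer match the assignment of the protein: Ndufa4 is now counted to complex IV, Cox7a2l is a factor that joins complexes III and IV, and Atp5s and Atp5sl are accessory or assembly proteins.

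A promoter window, from 250 bases before to 50 after the RefSeq start (GRCm38.p6), was matched by symbol for 66 of the 83 genes. The 250 bases before the start are printed 5′ to 3′ for the paired isoforms Cox6b1 and Cox6b2 and for Ndufv3, whose results stood apart below, for Atp5b, the most abundant of the set, and for Cox6a1, a housekeeping isoform. Capitals mark matches on either strand to 5 motifs of factors known to act on such genes.
Cox6b1, chr7:30626115-30626364, minus strand: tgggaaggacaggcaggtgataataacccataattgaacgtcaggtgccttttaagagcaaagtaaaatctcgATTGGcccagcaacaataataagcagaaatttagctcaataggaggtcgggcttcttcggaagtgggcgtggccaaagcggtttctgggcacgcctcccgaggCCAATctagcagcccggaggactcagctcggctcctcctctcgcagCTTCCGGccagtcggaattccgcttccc
Cox6b2, chr7:4753095-4753344, minus strand: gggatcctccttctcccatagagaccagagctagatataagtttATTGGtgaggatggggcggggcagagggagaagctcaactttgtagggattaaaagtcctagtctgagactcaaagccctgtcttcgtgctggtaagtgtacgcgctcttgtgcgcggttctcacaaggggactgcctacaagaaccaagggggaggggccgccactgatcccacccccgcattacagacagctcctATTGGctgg
Ndufv3, chr17:31519865-31520114, plus strand: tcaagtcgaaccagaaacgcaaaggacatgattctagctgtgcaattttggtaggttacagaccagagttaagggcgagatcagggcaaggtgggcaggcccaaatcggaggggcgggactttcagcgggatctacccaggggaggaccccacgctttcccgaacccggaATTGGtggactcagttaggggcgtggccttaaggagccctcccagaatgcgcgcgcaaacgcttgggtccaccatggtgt
Atp5b, chr10:128083057-128083306, plus strand: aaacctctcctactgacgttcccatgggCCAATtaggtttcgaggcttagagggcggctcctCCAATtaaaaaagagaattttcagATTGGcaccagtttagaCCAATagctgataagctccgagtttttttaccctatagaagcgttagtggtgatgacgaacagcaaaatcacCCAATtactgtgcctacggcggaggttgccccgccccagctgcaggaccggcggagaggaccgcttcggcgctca
Cox6a1, chr5:115348959-115349208, minus strand: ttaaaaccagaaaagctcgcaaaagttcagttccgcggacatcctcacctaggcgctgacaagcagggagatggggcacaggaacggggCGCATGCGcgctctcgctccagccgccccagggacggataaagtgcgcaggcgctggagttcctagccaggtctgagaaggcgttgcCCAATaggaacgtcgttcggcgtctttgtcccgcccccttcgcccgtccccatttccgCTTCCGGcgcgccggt
The motifs, searched over the whole window, were CGCATGCG (the core of the NRF1 site), CCGGAAG (ETS factors), AAGATGG (YY1), CCAAT (NF-Y) and CACGTG (the E box). The ETS and YY1 letters can share AAG. The NRF1 core was found in 9 of the 66 windows (13.6%), against 4.36% of the 9910 expressed genes with a window and 2.07% of all 27025 genes. The YY1 letters stood in 10 (15.2%, against 8.24% and 7.28%) and the ETS letters in 16 (24.2%, against 19.8% and 9.93%). CCAAT was found in 29 (43.9%, against 43.0% and 41.1%) and the E box in 5 (7.58%, against 11.9% and 8.09%). The printed stretch of Cox6b1 held an ETS match and 2 CCAAT matches, and those of Cox6b2 and Ndufv3 held CCAAT and none of the other letters. The median window of the set held 19 CpG dinucleotides, against 22 for expressed genes and 8 for all genes. These matches describe the letters in the windows.

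Depth, estimated from coverage, was 38.1 to 56.8 M reads a library. A value of 1 TPM (transcripts per M transcripts) stood for 20.7 to 29.3 reads per kilobase. Gli3 itself was at 14.3 to 20.8 TPM in the E9.25 Gli3-/- libraries and at 44.2 and 44.6 TPM in E9.25 WT replicates 1 and 3, but at 15.8 TPM in the library labelled E9.25 WT replicate 2. In that library long genes were low in general: the median gene spanning over 100 kb lay 0.75 below its mean over all libraries (log2), and the label was not tested further. At E9.25 it is named below as the library labelled WT replicate 2, and the counts, sums and shares that rest on it are also given without it. At E10.5, Gli3 stood at 73.4 to 89.7 TPM in WT and at 38.7 to 40.9 TPM in Gli3-/-. The Gli3 values cover the whole annotated gene, and the Xt-J allele removes only a part of it. The median gene differed by 0.34 (log2) between the WT stages and by 0.23 between the genotypes at E9.25, so changes are also given relative to it.

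Respiratory chain genes were among the most abundant transcripts of the limb bud. The set made up 1.57 to 1.94% of all TPM, and the genes of mitochondrial DNA another 4.23 to 7.81%. Of the 83 genes, 79 reached 1 TPM in at least 3 libraries and were tested. Their median level, as the mean TPM over the 14 libraries, was 169.5 TPM, against 13.2 TPM for the 16368 genes expressed by the same criterion, and 60 of the 79 were at 100 TPM or more. The most abundant gene of each complex was Atp5b (1260 TPM), which encodes the catalytic beta subunit of ATP synthase, Cox7c of complex IV (557 TPM), Uqcrh, the hinge protein of complex III (506 TPM), Ndufa4 (492 TPM) and Sdhd, a membrane anchor of complex II (204 TPM). Ndufa4 is grouped under complex I by its symbol only (above), and the next gene of that group was Ndufc2 (223 TPM). The median gene rose in level from complex I (120 TPM) through II (166 TPM), III (210 TPM) and IV (258 TPM) to V (284 TPM). The least abundant tested gene of each complex was Cox7a1 (1.33 TPM), Atp5s (4.70 TPM), Ndufa11 (29.0 TPM), Sdhc (48.9 TPM) and Uqcrfs1, the Rieske iron-sulfur protein of complex III (132 TPM).

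**Figure D1:**
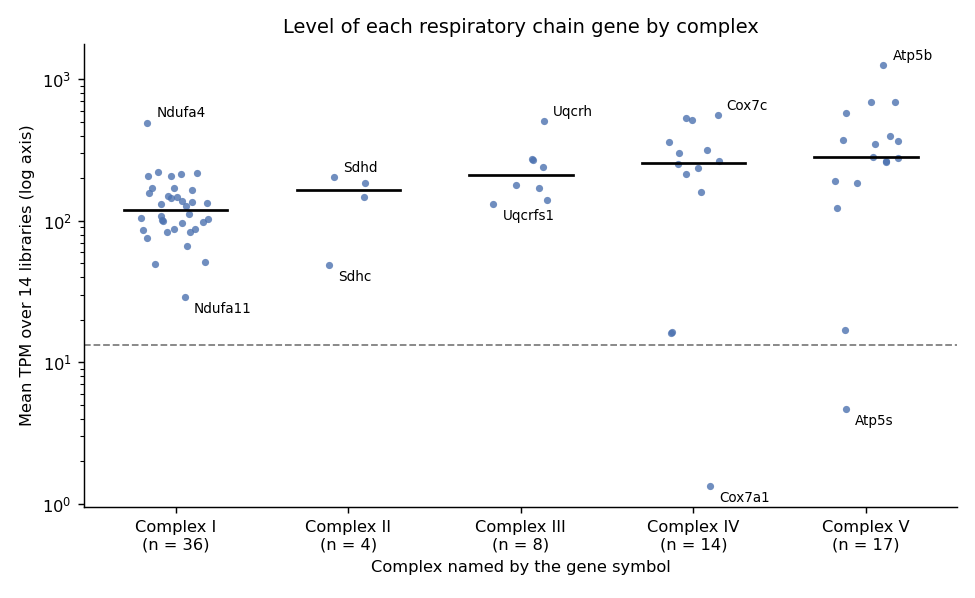
Mean TPM over 14 libraries of each of the 79 tested genes (points, log axis) by complex, with the median of each complex (black line) and the median of all expressed genes (dashed line, 13.2 TPM). Nearly all genes lie above the dashed line, and the few below it or close to it are Cox7a1, Cox4i2, Cox6b2, Atp5s and Atp5sl.

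The limb bud used the widely expressed isoform of each complex IV pair. Cox6a2 and Cox8c, of muscle and testis, were listed at 0 in all 14 libraries. Cox8b, a muscle isoform, and Cox7b2, a testis isoform, stayed under 1 TPM in every library. Cox7a1 reached at most 2.06 TPM, while Cox7a2, its widely expressed counterpart, was at 234 to 499 TPM. Of the summed TPM of Cox4i1 and Cox4i2, Cox4i2 made up 4.61% ± 1.22 (SD, n = 3) in E9.25 WT, 4.01% ± 0.38 (n = 4) in E9.25 Gli3-/-, 1.68% ± 0.38 (n = 4) in E10.5 WT and 1.73% ± 0.12 (n = 3) in E10.5 Gli3-/-. Cox6b2 made up 1.78% ± 0.45, 2.34% ± 1.05, 4.43% ± 0.92 and 3.45% ± 0.31 of its pair in the same order of groups. Without the library labelled WT replicate 2 the E9.25 WT means (n = 2) were 5.27% for Cox4i2 and 1.94% for Cox6b2. The 3 genes of subunit c of ATP synthase, which encode the same mature protein, kept one order in all groups: Atp5g3 gave 62.5 to 66.8% of their summed TPM as group means, Atp5g2 20.8 to 28.9% and Atp5g1 8.53 to 13.5%. Without that library the E9.25 WT means were 61.2%, 25.3% and 13.4%.

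To see how the chain changed as the bud grew, E10.5 was compared with E9.25 in WT. As scaled by TPM, most genes of the set stayed close to their earlier level, which depended on the scaling (below). Of the 79, 74 changed by less than 0.5 on the log2(TPM + 1) scale, against 54.9% of all genes tested. The set was also measured with less spread, with a median SE of 0.10 against 0.17 for all genes. By limma with Benjamini-Hochberg adjustment over all genes, 7 genes rose and 9 fell, or 20.3% of the set. Across all 15444 genes tested, 48.7% were called, 38.1% higher and 10.6% lower. The median gene of the set changed by -0.04 and the median of all genes by 0.34 (0.02 and 0.25 without the library labelled WT replicate 2), and 9 of the 79 genes lay above the median of all genes (15 without it). Without the library labelled WT replicate 2, 11 genes rose and 4 fell, and 11 of the 16 genes were called again. All 4 genes newly called then, Cox4i1, Ndufs3, Sdhc and Uqcrc1, were higher at E10.5.

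The testis-type subunit Cox6b2 (chr7:4751792-4753094) rose most. It stood at 11.8, 8.59 and 9.10 TPM in E9.25 WT and at 32.5, 24.1, 25.5 and 21.1 TPM in E10.5 WT. The groups did not overlap, and the change was 1.30 on the log2(TPM + 1) scale (SE 0.17, limma adjusted p = 0.000772), a fold of 2.46. Its widely expressed counterpart Cox6b1 was at 505, 585 and 561 TPM and then at 536, 600, 547 and 550 TPM, values that overlapped (0.02, SE 0.08, limma adjusted p = 0.843). Cox4i2 (chr2:152754173-152765037), the isoform of subunit IV that is induced by low oxygen, fell most. Its levels were 21.8, 19.5 and 24.3 TPM in E9.25 WT and 7.65, 12.4, 8.83 and 8.99 TPM in E10.5 WT, again without overlap. The change was -1.14 (SE 0.17, limma adjusted p = 0.00134), a fold of 0.453. Cox4i1 rested at 427, 573 and 403 TPM, where the high value is the library labelled WT replicate 2, and at 584, 556, 581 and 507 TPM at E10.5 (0.27, SE 0.13, limma adjusted p = 0.106). Without that library Cox4i1 passed the test, at 0.42 (limma adjusted p = 0.00827), and Cox6b2 and Cox4i2 changed by 1.22 and -1.22. The changes of Cox6b2 and Cox4i2 also passed without each other library in turn.

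Complex I held 6 of the 16 called genes, or 16.7% of its 36 tested genes, against 48.7% of all genes tested. Ndufv3 (chr17:31520115-31531326), a flavoprotein accessory subunit, was at 113, 121 and 129 TPM in E9.25 WT and at 92.0, 88.4, 92.9 and 87.0 TPM in E10.5 WT (-0.42, SE 0.08, limma adjusted p = 0.00454). Every E10.5 value was below every E9.25 value. The change was -0.42 without the library labelled WT replicate 2 as well, and relative to the median gene it was -0.75. Ndufa5, an accessory subunit, also fell (-0.34, limma adjusted p = 0.0357), although this call was lost without the library labelled WT replicate 2 and without 3 other libraries, one at a time. Among the genes that rose was the core subunit Ndufv1, which binds NADH and FMN. It went from 109, 108 and 118 TPM to 151, 146, 149 and 141 TPM (0.39, SE 0.08, limma adjusted p = 0.00436). The accessory subunits Ndufa10 (0.47, SE 0.10, limma adjusted p = 0.00657) and Ndufc1 (0.37, SE 0.12, limma adjusted p = 0.0341) rose as well. Relative to the median gene these 3 rises were 0.05 for Ndufv1, 0.13 for Ndufa10 and 0.04 for Ndufc1.

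In complex II, the membrane anchor Sdhd fell from 228, 244 and 242 TPM to 194, 197, 183 and 199 TPM (-0.30, SE 0.07, limma adjusted p = 0.0117). The groups did not overlap, and the call held without each library in turn. The flavoprotein Sdha was at 126 to 151 TPM and then at 137 to 159 TPM, and the iron-sulfur subunit Sdhb at 173 to 200 TPM and then at 185 to 196 TPM. Sdhc, the other anchor, was at 32.1 to 46.3 TPM and then at 45.1 to 58.2 TPM, and neither Sdha, Sdhb nor Sdhc passed the test with all libraries.

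In complex III, 3 of 8 genes fell (37.5%) and none rose, against 10.6% lower and 38.1% higher of all genes tested. Uqcrq, a small subunit, was at 213, 141 and 196 TPM and then at 124, 120, 70.9 and 138 TPM (-0.71, SE 0.23, limma adjusted p = 0.0321). Its call was lost without E9.25 WT replicate 1 or 3 or E10.5 WT replicate 2 (log2 change -0.51 to -0.89 over all such fits). Uqcrb, another small subunit, changed by -0.31 (SE 0.10, limma adjusted p = 0.0291). Uqcrc2, a core protein, changed by -0.25 (SE 0.08, limma adjusted p = 0.03). Both calls were lost without the library labelled WT replicate 2.

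In complex IV, Cox7c and Cox7a2 fell beside Cox4i2. Cox7c, a small subunit, was at 662, 721 and 626 TPM and then at 482, 579, 470 and 558 TPM (-0.36, SE 0.10, limma adjusted p = 0.019). Cox7a2 (chr9:79755241-79759853) was at 365, 499 and 377 TPM, the highest again in the library labelled WT replicate 2, and then at 281, 366, 304 and 322 TPM. These groups overlapped at one value (-0.37, SE 0.13, limma adjusted p = 0.0457). Neither gene passed without that library.

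Among the genes grouped under complex V by symbol, Atp5sl rose from 12.8, 13.1 and 11.999 TPM to 18.1, 17.1, 20.03 and 17.9 TPM (0.50, SE 0.11, limma adjusted p = 0.0085). Its symbol no longer matches the assignment of its protein (above), so this is not a change of an ATP synthase subunit. Atp5e, the epsilon subunit of the F1 part, was at 219, 263 and 217 TPM and then at 273, 309, 293 and 266 TPM (0.30, SE 0.10, limma adjusted p = 0.0356). The Atp5e call held only without the library labelled WT replicate 2 among the 7 leave-out fits, and with size factors its change was -0.07. No gene of complex V fell by the test.

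**Figure D2:**
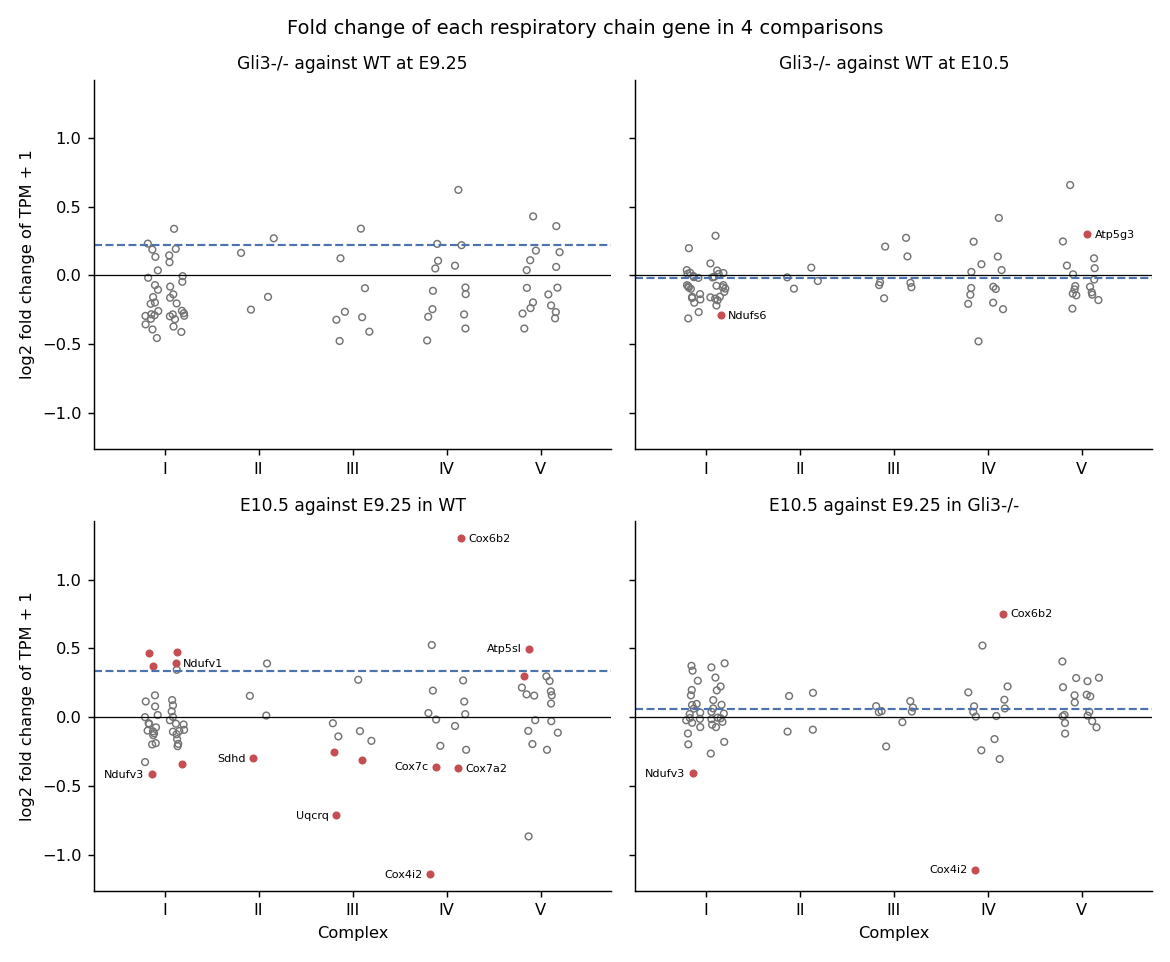
log2 fold change of TPM + 1 of the 79 tested genes by complex in the 4 pairwise comparisons, with genes past the limma threshold filled and 11 of the genes described in the text named where they passed, and the median of all genes tested as a dashed line. In the WT stage comparison most points lie below the dashed line at 0.34, and Cox6b2 and Cox4i2 lie farthest from 0 among the called genes.

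The genes called depended on the scaling. With median-of-ratios size factors, which set the median gene near 0, 1 gene of the set rose and 35 fell in the WT stage comparison. With the trend of gene span removed, 1 rose and 33 fell, and with quantile normalization 11 rose and 6 fell. The median change of the set was -0.41, -0.31 and 0.002 under these settings, in the same order. Ndufv1, Ndufa10 and Ndufc1 changed by 0.01 to 0.11 with size factors, and none of the 3 passed. Cox6b2 rose and Cox4i2 and Ndufv3 fell under all 11 other settings.

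**Figure D3:**
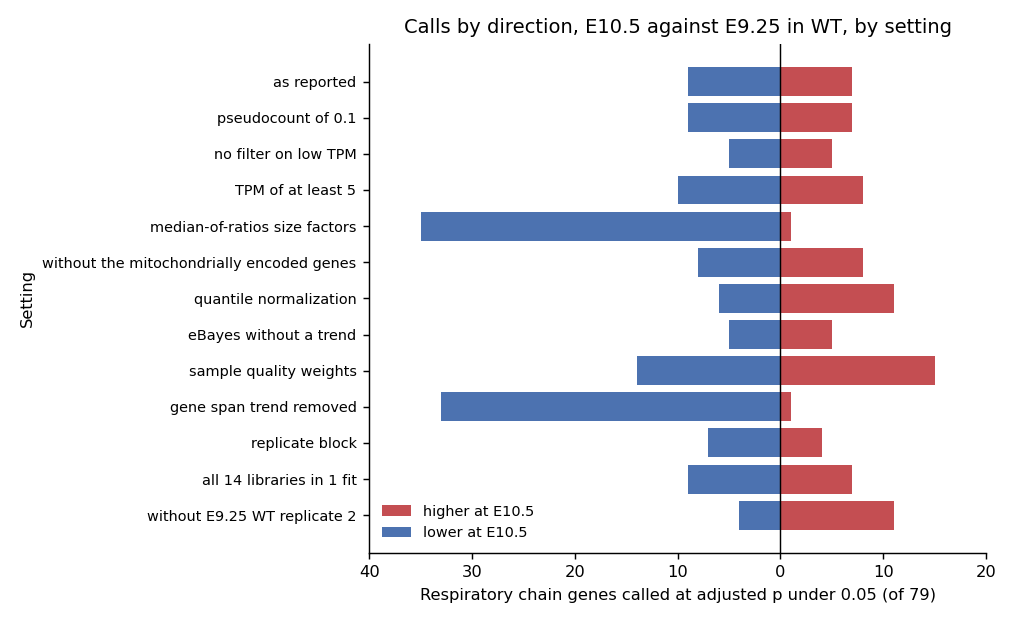
Number of the 79 genes called higher (right) or lower (left) between the WT stages, under the reported setting, 11 others and without the library labelled WT replicate 2. The bars stand at 1 higher and 35 lower with size factors and at 11 higher and 6 lower with quantile normalization.

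The same comparison was then made in Gli3-/- buds, with separate libraries. There 1 gene rose and 2 fell of the 79 tested (3.8%), against 25.0% of the 15434 genes tested, 15.8% of them higher and 9.17% lower. The genes called were Cox6b2, Cox4i2 and Ndufv3, each in the direction it took in WT. Cox4i2 was at 20.1, 24.5, 27.4 and 19.2 TPM in E9.25 Gli3-/- and at 9.04, 10.1 and 10.8 TPM in E10.5 Gli3-/- (-1.11, SE 0.15, limma adjusted p = 0.000486), with no overlap and with the call kept without each library in turn. Ndufv3 went from 130, 103, 110 and 107 TPM to 92.1, 78.0 and 83.1 TPM (-0.41, SE 0.11, limma adjusted p = 0.0248). That call was lost without E9.25 Gli3-/- replicate 4 or E10.5 Gli3-/- replicate 2 or 3, and the change ran from -0.47 to -0.34 over the 7 fits that left out a library. Cox6b2 went from 6.86, 9.99, 16.7 and 9.61 TPM to 17.0, 17.7 and 19.4 TPM (0.75, SE 0.23, limma adjusted p = 0.0386). The highest E9.25 value, of replicate 3, came close to the lowest E10.5 value, and the call held only without that replicate, with changes of 0.58 to 0.97 over the 7 such fits.

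**Figure D4:**
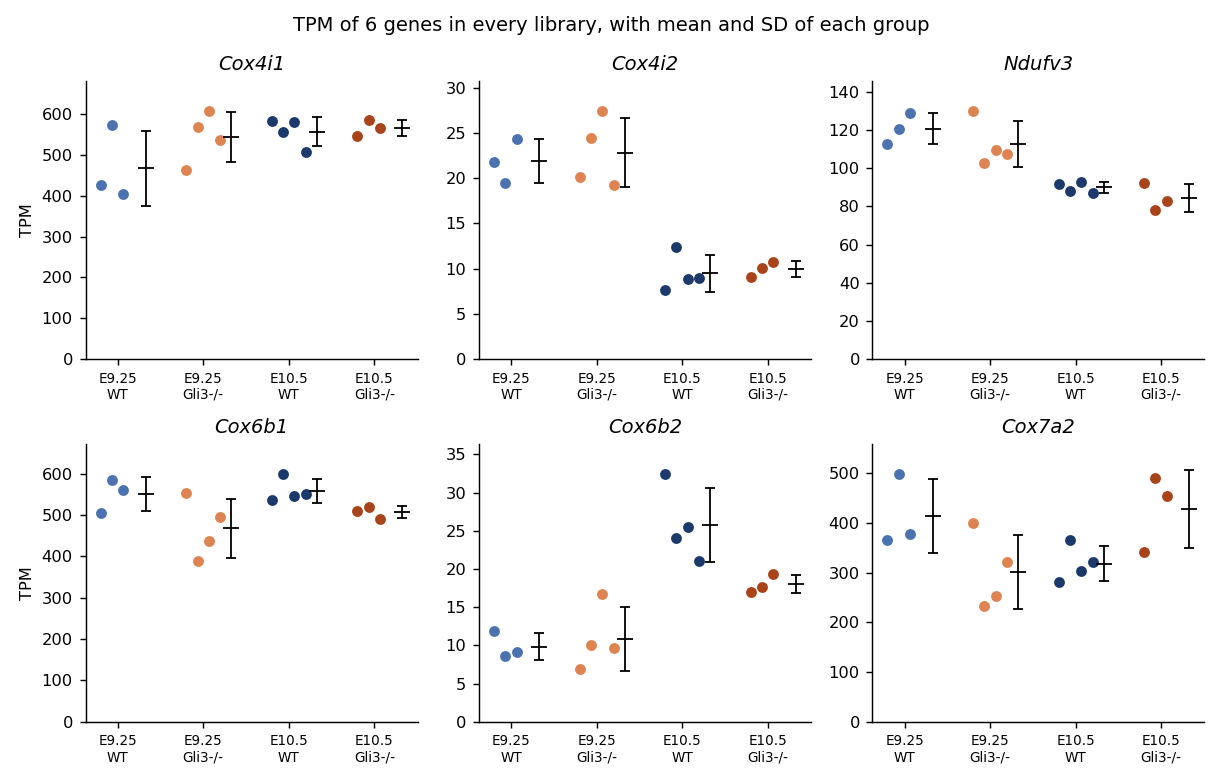
TPM of Cox4i1, Cox4i2, Ndufv3, Cox6b1, Cox6b2 and Cox7a2 in each library (points) with the mean and SD of each group (black), axes from 0. Cox4i2 and Ndufv3 are lower and Cox6b2 is higher in every E10.5 library than in every E9.25 library of the same genotype, while the Cox4i1 and Cox6b1 ranges overlap.

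Loss of Gli3 at E10.5 left the set close to WT. Of the 79 genes, 78 changed by less than 0.5 (log2), against 92.1% of all genes, and 2 were called (2.53%), against 4.77% of the 15654 genes tested. Atp5g3 (chr2:73908447-73911326), one of the genes of subunit c, was at 619, 621, 657 and 560 TPM in WT and at 736, 753 and 774 TPM in Gli3-/- (0.30, SE 0.07, limma adjusted p = 0.0469). Ndufs6 (chr13:73319874-73328542), a zinc-binding accessory subunit of complex I, was at 146, 152, 165 and 156 TPM in WT and at 121, 133 and 125 TPM in Gli3-/- (-0.29, SE 0.07, limma adjusted p = 0.0408). Neither pair of groups overlapped. Both calls were lost in each of the 7 fits that left out a library, in which Atp5g3 changed by 0.25 to 0.33 and Ndufs6 by -0.33 to -0.26. The other genes ranged from -0.48 for Cox6b2 (SE 0.13, limma adjusted p = 0.0798) to 0.66 for Atp5g1 (SE 0.31, limma adjusted p = 0.28). Cox6b2 was at 21.1 to 32.5 TPM in WT and at 17.0 to 19.4 TPM in Gli3-/-, ranges that did not overlap.

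Before Hedgehog signaling, at E9.25, no gene of the set was called between Gli3-/- and WT by limma. Of the 14760 genes tested, 0.136% were called. At an unadjusted p under 0.05 there were 16 of the set (20.3%), against 22.0% of all genes. This depended on the scaling too: the 16 became 36 with size factors and 29 with the span trend removed. The share of all genes was not counted under those 2 settings. The median gene of the set changed by -0.16 and the median of all genes by 0.23 (-0.13 and 0.14 without the library labelled WT replicate 2), and 8 of the 79 genes lay above the latter. Without the library labelled WT replicate 2, 4 genes had an unadjusted p under 0.05, none was called, and 20 lay above the median of all genes. The summed TPM of complex I was 5128 ± 228 (SD, n = 3) in WT and 4615 ± 357 (n = 4) in Gli3-/-, and that of complex II 604 ± 15.8 and 573 ± 6.02. Complex III stood at 2124 ± 66.7 and 1838 ± 240, complex IV at 3931 ± 419 and 3584 ± 275, and complex V at 6345 ± 362 and 6108 ± 95.1. The library labelled WT replicate 2 gave the highest WT sum of each complex, and without it the WT means of the other 2 libraries were 4997, 595, 2091, 3689 and 6137 TPM for complexes I to V. The sums of complex II did not overlap between the genotypes with or without it (594 to 623 TPM in WT, 568 to 581 TPM in Gli3-/-), while those of the other complexes did. Of the 4 genes of complex II, however, 2 were higher and 2 lower in Gli3-/-, with a median change of 0.004. None of the 4 was called or had an unadjusted p under 0.05, and the sums were not tested.

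The lower values in E9.25 Gli3-/- lay mostly in 2 of its 4 libraries. Replicates 2 and 3 were both below every E9.25 WT library for 43 of the 79 genes (54.4%), against 11.9% of all genes tested, and above every WT library for 14 (17.7%, against 47.8%). Set against WT replicates 1 and 3 alone, they were below for 44 (55.7%, against 16.5%) and above for 21 (26.6%, against 51.0%). Replicate 1 lay within the WT range for 52 of the 79 (65.8%), against 64.8% of all genes. The median deviation of the 79 genes from their means over all 14 libraries was 0.03 in replicate 1, -0.21 in replicate 2, -0.13 in replicate 3 and -0.03 in replicate 4. It was 0.05, 0.16 and 0.04 in E9.25 WT. Uqcrb shows the pattern, with 308, 337 and 326 TPM in WT and 307, 196, 215 and 272 TPM in Gli3-/-. Without replicates 2 and 3, a choice made after seeing the data, 0 of all 14169 genes tested were called between genotypes at E9.25 by limma, so that fit said nothing of the set by its calls; 0 of the set had an unadjusted p under 0.05. The stage comparison in Gli3-/- then gave 7 genes higher and 4 lower, with 5307 of 14848 genes called. Markers of other cells also differed here. The sum of lateral plate and flank markers was 19.9 to 55.4 TPM in E9.25 WT and 78.2 to 212 TPM in E9.25 Gli3-/-, and 3 of 6 rose by limma, as they did without the library labelled WT replicate 2. Foxf1, a flank mesoderm factor, was at 2.80, 0.221 and 0.495 TPM in WT and at 23.7, 28.8, 35.5 and 12.1 TPM in Gli3-/-. Every Gli3-/- value of Foxf1 was above every WT value. Among the Gli3-/- libraries, replicates 2 and 3 had the highest values of each of the flank markers. The sum of endothelial markers was 59.3 to 94.9 TPM in WT and 108 to 157 TPM in Gli3-/-, with 0 of 6 called. Replicates 2 and 3 were also the highest Gli3-/- libraries for the endothelial markers Kdr, Pecam1, Cdh5 and Tie1, but not for Tek and Emcn. The part of these cell types in the result was not tested.

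**Figure D5:**
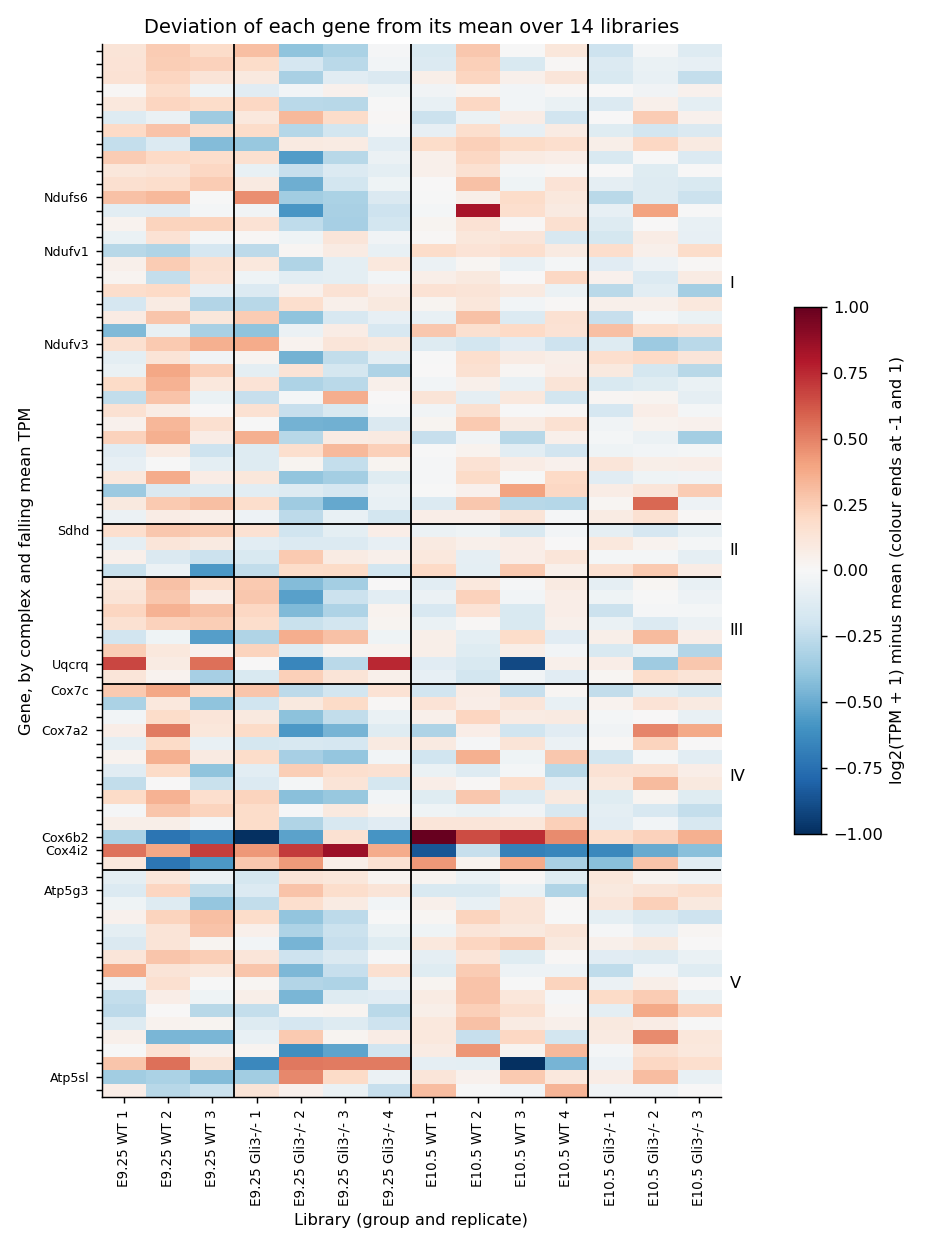
log2(TPM + 1) of each of the 79 tested genes minus its mean over 14 libraries (colour from -1 to 1), by complex (rows, of which 11 are named) and library (columns). In columns 1 to 4 of E9.25 Gli3-/-, 44, 25, 31 and 30 genes lie above their mean, against 44 to 62 in the E9.25 WT columns, and the Cox6b2 and Cox4i2 rows change colour between the stages.

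The difference between the genotypes' stage changes was tested as an interaction over all 14 libraries. No gene of the set passed by limma, and 2.13% of the 16368 genes tested were called. At an unadjusted p under 0.05 there were 3 of the set (3.8%), against 21.0% of all genes. The 3 became 17 with size factors and 14 with the span trend removed, settings under which the share of all genes was not counted. The median interaction was 0.09 for the set and -0.24 for all genes (0.04 and -0.16 without the library labelled WT replicate 2). Of the 79 genes, 72 lay above the median of all genes (63 without that library). Cox7a2 came closest. It was at 399, 234, 253 and 320 TPM in E9.25 Gli3-/- and at 341, 491 and 454 TPM in E10.5 Gli3-/-. The stage ranges overlapped in both genotypes. The mean went from 302 to 428 TPM in Gli3-/- and from 414 to 318 TPM in WT. The interaction was 0.89 (SE 0.26, limma adjusted p = 0.0897). The genotype difference of Cox7a2 was -0.47 at E9.25 (SE 0.19, limma adjusted p = 0.22) and 0.42 at E10.5 (SE 0.13, limma adjusted p = 0.116). The interaction passed without E9.25 WT replicate 1 (0.97) and without E9.25 Gli3-/- replicate 1 (1.04). Without the library labelled WT replicate 2 no gene of the set passed.

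Other genes of the pathway were counted by lists. With stage, 38.1% of all genes tested were called higher and 10.6% lower in WT. In Gli3-/- these shares were 15.8% and 9.17%. Between genotypes, 0.136% were called at E9.25 and 4.77% at E10.5. Of the 13 subunits encoded in mitochondrial DNA, 5 rose and 1 fell with stage in WT (3 and 0 without the library labelled WT replicate 2) and 6 rose and 0 fell in Gli3-/-. The complex I subunit mt-Nd4 changed by 0.65 and 0.75 (limma adjusted p = 0.011 and 0.00308). None of the 13 was called between genotypes. Of 43 assembly factors tested, 4 rose and 7 fell with stage in WT (4 and 5 without that library) and 2 rose and 3 fell in Gli3-/-. Cox17, the copper chaperone of complex IV, changed by -1.03 and -0.55 (limma adjusted p = 0.000361 and 0.0414), and Ndufaf4, an assembly factor of complex I, by -0.97 and -0.51 (limma adjusted p = 0.00207 and 0.0241). Surf1, an assembly factor of complex IV, was the 1 factor called between genotypes, lower in Gli3-/- at E10.5. Among 10 subunits and carriers whose symbols the rule does not match, 2 rose and 2 fell in WT and 1 rose and 1 fell in Gli3-/-, and Cycs, cytochrome c, fell in both (-0.93 and -0.49, limma adjusted p = 0.00035 and 0.024). Of 14 regulators of mitochondrial biogenesis, 1 rose and 2 fell in each genotype. Ppargc1a, a coactivator of mitochondrial biogenesis, rose (1.67 and 1.06, limma adjusted p = 0.000288 and 0.000652), and Myc fell (-1.66 and -2.06, limma adjusted p = 0.000277 and 9.36e-06). Ppargc1a was low throughout, at 0 TPM in E9.25 WT and 0.04 to 0.11 TPM in E9.25 Gli3-/-. At E10.5 it was at 1.70 to 2.70 TPM in WT and 1.04 to 1.37 TPM in Gli3-/-.

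The list of genes of the response to low oxygen itself includes Cox4i2, which is 1 of the genes counted as lower in both genotypes. It also includes Ndufa4l2, counted as lower in WT only, which is 1 of the unmatched subunits and carriers above as well. Of the 10 genes of the list, 5 fell and 1 rose with stage in WT, against 10.6% lower and 38.1% higher of all genes tested. In Gli3-/-, 6 fell and 1 rose, against 9.17% lower and 15.8% higher. None of the 10 was called between genotypes. Ldha, lactate dehydrogenase A, changed by -1.18 and -1.04 (limma adjusted p = 5.59e-05 and 0.000209), and Pdk1, which restrains pyruvate entry into the mitochondrion, by -0.99 and -1.08 (limma adjusted p = 0.00204 and 0.000118). The gene that rose was Epas1, an oxygen-regulated transcription factor (0.89 and 0.69, limma adjusted p = 0.00832 and 0.019). Ldha made up most of the list's summed TPM, at 2837 to 3187 TPM in the E9.25 libraries and 1267 to 1679 TPM in the E10.5 libraries. The other 9 genes summed to 328 to 510 TPM and to 262 to 307 TPM. In WT the counts were the same without the library labelled WT replicate 2.

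Markers of other cells were counted with stage as well. Of all genes tested, 48.7% were called with stage in WT and 25.0% in Gli3-/-. Between genotypes at E10.5 the share was 4.77%. The summed muscle progenitor markers rose from 5.78 to 11.3 TPM over the E9.25 libraries to 27.9 to 52.1 TPM over the E10.5 libraries, with 4 of 4 tested genes called in WT and 3 of 4 in Gli3-/-, and 1 of 4 was called lower in Gli3-/- at E10.5. Lateral plate and flank markers were lower at E10.5, at 6.97 to 19.4 TPM, with 4 of 5 tested genes called lower and 1 higher in WT and 5 of 6 lower in Gli3-/-. Limb mesenchyme markers were at 630 to 1048 TPM over all libraries, and 5 of 6 were called lower in Gli3-/- at E10.5. With stage, 2 of them rose in WT, and 1 rose and 3 fell in Gli3-/-. Erythroid markers ranged from 8410 to 42141 TPM, with 1 of 9 called, lower, in WT with stage and none in the other 3 comparisons. Of 6 endothelial markers, 2 rose in WT, and 1 rose and 2 fell in Gli3-/- with stage. Of 7 surface ectoderm markers, 2 rose in WT and 3 rose and 2 fell in Gli3-/-, and 1 was called higher in Gli3-/- at E10.5. Of 2 neural crest markers tested, 2 rose in WT and 1 in Gli3-/-. Without the library labelled WT replicate 2, the WT stage counts were 2 erythroid markers lower, 2 endothelial higher and 1 lower, 1 surface ectoderm higher and 1 lower, 1 neural crest higher, and 1 flank higher and 2 lower of 3 tested. Those of muscle progenitors, limb mesenchyme, biogenesis regulators and unmatched subunits and carriers were the same. The part of any of these cell types in the changes of the respiratory chain genes was not tested.

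The genes were short, with a median span of 7.51 kb against 15.2 kb for expressed genes, and 53 of the 79 (67.1%) spanned under 10 kb against 40.6%. Moreover, 31 of the 83 overlapped another listed gene, 26 of them one that reached 1 TPM, and 7 of those on the same strand. Among the genes named here, Cox4i1 overlaps Emc8 and Ndufs3 overlaps Kbtbd4 on the other strand. On the same strand, Cox7c overlaps Gm22574 and Atp5b overlaps Snord59a, and further named genes overlap others. Processed copies with names of their own were expressed too: Atp5k-ps2 was at 79.6 to 113 TPM and Atp5l2-ps at 14.1 to 29.4 TPM, and reads shared between such copies and their source genes are uncertain.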

How the data were processed

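RNA-seq of 14 forelimb bud libraries was used. Per the study's methods, the authors pooled limb bud pairs in TRIzol, used the NEBNext Ultra II RNA kit and a NovaSeq (single reads, 100 bases), and mapped by HISAT2. The authors deposited 1 gene table per library with TPM, FPKM and coverage (mean read depth, a signal) per gene; the program and annotation behind these tables are not given in the sources used here. The submitters' processing notes name mm10, and gene coordinates are as deposited. TPM is scaled to 1 total per library, so a change in a few abundant genes moves all others. Rows of the same gene ID were summed. Depth was estimated from the ratio of coverage to FPKM.

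The log2(TPM + 1) values were fitted with limma 3.58.1 (R 4.3.3; lmFit, eBayes with a trend) over all genes at 1 TPM or more in at least 3 of the libraries compared. The Benjamini-Hochberg threshold was 0.05, and fold changes on this scale understate those of low genes. Each pairwise fit used the 2 groups compared and the interaction all 14 libraries. The script was tested on simulated data. Fits without each library, with a pseudocount of 0.1, without the TPM filter or with 5 TPM, with other scalings, weights, a replicate block and all libraries in 1 fit were made. The named genes are the highest and lowest of each complex, up to 5 called genes per direction and comparison, all complex II genes, the isoform families and those under 1 TPM; Atp5e, Ndufc1, Ndufa5, Uqcrb and Uqcrc2, Ndufs3 and Uqcrc1 were added after their values were seen. The genes, lists and motifs were chosen with earlier results of these data known. Promoter windows are RefSeq's. The other assays of the series were not used here. The result of 1 gene is not reported here.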

Additional observations from a re-analysis of the deposited data

Results flagged for a closer look

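In 72 groups of 4 libraries, taken over the named genes and the summed complexes, 3 values lay far from the other 3 of their group, and chance flags about 1 in 20 groups. Atp5g1, a gene of subunit c of ATP synthase, was at 72.9 TPM in E9.25 Gli3-/- replicate 1 and at 165 to 166 TPM in the other 3. Cox7a2l was at 188 TPM in E10.5 WT replicate 4 and at 173 TPM in each of the other 3. Cox8a, the widely expressed isoform of subunit VIII, was at 333 TPM in E9.25 Gli3-/- replicate 4 and at 278 to 281 TPM in the others.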

How the results depend on the processing

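Of the tests of single genes repeated under other settings or without 1 library, 406 kept direction and side of the threshold, 112 kept direction but were no longer called, 7 became called and 10 changed sign. With size factors the WT stage change was -0.0696 for Atp5e, -0.10 for Cox4i1 and -0.34 for Cox6b1, and that of Cox4i1 in Gli3-/- was -0.0179. Cox6b1 in WT was -0.0140 with sample quality weights, -0.26 with the span trend removed, -0.0386 without E9.25 WT replicate 1 and -0.0138 without E10.5 WT replicate 2 (up to 0.0669 over the fits without 1 library). In Gli3-/-, Cox4i1 was -0.0112 without E9.25 Gli3-/- replicate 1 (up to 0.119 without another library), and Cox6b1 was -0.0457 without E9.25 Gli3-/- replicates 2 and 3. The causes were not tested.

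Of the 79 genes, E9.25 genotype calls were 0 under all settings but the fit of all 14 libraries (2, both lower) and 0 without any 1 library. At E10.5 the 2 genotype calls became 0 without the TPM filter, with size factors, without the eBayes trend, with the span trend removed, with the replicate block and in the fit of all libraries, 4 with quantile normalization and 6 with weights, and they ranged from 0 to 1 without 1 library. The 16 WT stage calls became 10 without the filter or the eBayes trend, 36 with size factors, 29 with weights and 34 with the span trend removed, and ranged from 10 to 21 without 1 library (10 without E10.5 WT replicate 3). The 3 Gli3-/- stage calls became 8 with quantile normalization, 16 with weights, 6 in the fit of all libraries and 11 without E9.25 Gli3-/- replicates 2 and 3, and ranged from 1 (without E9.25 Gli3-/- replicate 4 or E10.5 Gli3-/- replicate 2 or 3) to 11 (without E9.25 Gli3-/- replicate 1). The 0 interaction calls ranged from 0 to 1 without 1 library. By the numbers in the titles, the correlation of deviations ran from -0.27 to 0.13 over same-numbered pairs. The deposited names of the E10.5 Gli3-/- libraries carry 2 to 4 in place of 1 to 3. By those names, the correlations with E10.5 WT were 0.05, 0.29 and 0.17. With E9.25 Gli3-/- they were -0.08, 0.15 and -0.006. Whether the libraries were paired was not tested. With the replicate block, which followed the title numbers, calls were 0 at E9.25, 0 at E10.5, 11 with stage in WT and 4 in Gli3-/-.

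No count table was used, so depth enters only through the estimate given.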
